A study of Mus musculus with 24 samples.

Results

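The genes described here are 10 immunoglobulin and B cell genes of mouse liver, taken by symbol from 78298 counted gene IDs, each with 1 row. They are Ighm, Igha, Ighg2b and Ighg2c, which encode the constant regions of the IgM, IgA, IgG2b and IgG2c heavy chains, and Igkc, which encodes that of the kappa light chain. Jchain and Mzb1 are genes of antibody-secreting cells, and Cd79a, Cd79b and Cd22 are genes of the B cell surface. Bulk RNA sequencing of liver tissue gave 1 library from each of 18 steatohepatitis model mice and 6 normal control mice. In steatohepatitis the liver is fatty and inflamed. The diet, agent or genotype behind the model, its duration, and the mice's strain, sex and age were not given in the sources used here, and neither was any subgroup of the model mice. The comparisons are of antibody classes, and of B cell against plasma cell genes, in model over control livers, and then of the spread within the model group.

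B cells carry an antibody on their surface as part of the B cell receptor, in which the CD79a and CD79b proteins pass the signal inwards and CD22 dampens it. A resting B cell makes IgM and IgD, and class switching later exchanges the IgM constant region for that of IgG, IgA or IgE. Plasma cells secrete antibody: the J chain, encoded by Jchain, joins units of IgM and IgA into larger complexes, and MZB1 is a helper protein of antibody assembly in the endoplasmic reticulum. IgA plasma cells are best known from the gut lining, and the liver receives blood from the gut through the portal vein.

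Promoters from the RefSeq table used (GRCm38.p6) are given for 3 of the 10 genes, and whether Mzb1 has one there is not reported. These 3 were chosen without regard to their fold changes or to the motifs they hold. Each runs from 250 bases before the transcription start to 50 bases after it, 5′ to 3′ along the gene. The windows are chr7:24897247-24897546 (plus strand) for Cd79a, chr7:30878979-30879278 (minus strand) for Cd22 and chr5:88527848-88528147 (minus strand) for Jchain, and capitals mark matches to the motifs searched.
Cd79a: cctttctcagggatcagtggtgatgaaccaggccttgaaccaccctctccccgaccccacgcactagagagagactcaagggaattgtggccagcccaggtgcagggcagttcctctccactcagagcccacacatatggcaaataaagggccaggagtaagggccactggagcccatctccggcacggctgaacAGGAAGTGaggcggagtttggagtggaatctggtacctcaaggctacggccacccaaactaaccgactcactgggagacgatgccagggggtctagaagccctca
Cd22: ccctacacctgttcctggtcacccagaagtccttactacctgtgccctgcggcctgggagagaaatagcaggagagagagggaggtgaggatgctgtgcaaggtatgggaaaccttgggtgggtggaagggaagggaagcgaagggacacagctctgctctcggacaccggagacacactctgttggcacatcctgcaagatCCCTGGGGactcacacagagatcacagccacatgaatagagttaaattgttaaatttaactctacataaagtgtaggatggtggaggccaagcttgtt
Jchain: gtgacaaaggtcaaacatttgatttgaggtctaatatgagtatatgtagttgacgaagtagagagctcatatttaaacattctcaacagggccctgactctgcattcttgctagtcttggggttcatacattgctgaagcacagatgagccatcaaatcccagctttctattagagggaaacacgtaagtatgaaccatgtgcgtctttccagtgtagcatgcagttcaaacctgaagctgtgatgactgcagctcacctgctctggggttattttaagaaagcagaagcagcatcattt
The motifs, searched on both strands, were the octamer ATGCAAAT of immunoglobulin promoters, CCCNNGGG as the core of sites for the B cell factor EBF1, and AGGAAGTG as a core of sites for ETS factors such as PU.1. The Cd79a window held the ETS core, 55 bases before the start, and the Cd22 window held the EBF core, 48 bases before it. The Jchain window held none of them. Of 32851 promoters of the same length, 4.07% held the ETS core, 13.7% the EBF core and 1.74% the octamer. These matches describe letters and are not evidence of binding.

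Model and control libraries held between 31.6 M and 58.4 M counts. Levels are in CPM, each count set against its library's total and corrected with trimmed-mean (TMM) factors, and genes were tested with edgeR's quasi-likelihood test with Benjamini-Hochberg adjustment over 17456 genes, a gene being called at an adjusted p below 0.05. Of all genes tested, 60% were called, 31.2% higher and 28.8% lower in model livers, and 9.67% were higher in every model mouse than in every control. Scaling shifts all genes together: the median log2 fold change was 0.01 with TMM, 0.11 with factors by upper quartile and 0.34 on library totals alone, and 52%, 62.8% and 85.8% of the calls were then on the higher side. The calls of Ighm, Cd22, Cd79a and Cd79b held under all 3. Liver identity was clear in both groups: Alb, the albumin gene, averaged 61861 ± 12336 CPM in model and 113730 ± 23984 CPM in control livers (SD, n = 18 and 6). In bulk tissue, fewer cells of a type and less RNA per cell cannot be told apart.

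Of the 10 genes, 8 had enough counts to be tested, 4 of these rose in model livers, none fell and 4 did not pass the test. Over all genes 31.2% were called higher and 28.8% lower. Ighm, Cd79a, Cd79b and Cd22 were the 4 that rose, and Igha, Ighg2b, Ighg2c and Jchain were the 4 that did not pass. The Ighm row does not separate IgM of the B cell surface from secreted IgM. Over model mice Ighm had a Spearman rho of 0.85 with Jchain, a pair chosen after seeing the data, and of 0.40 with Cd79a. Cd79a had fewer counts than Jchain, and counting noise weakens correlations. Over the 8 tested genes the median was 0.71 on the log2 scale, against 0.01 over all genes. Ighm and Cd22 did not overlap between the groups, 2 of 8 against 9.67% of all genes.

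Ighm (chromosome 12, 113382178 to 113386350, GRCm39, minus strand) ran from 7.77 to 49.5 CPM with a median of 14.0 CPM in model livers, against 2.13 to 4.47 CPM with a median of 2.92 CPM in control livers. All 18 model mice stood above all 6 controls, and model mouse 17 stood far above the other model mice. Ighm averaged 18.3 ± 10.5 CPM in model and 3.18 ± 1.00 CPM in control livers (SD, n = 18 and 6), a log2 fold change of 2.53 (SE 0.38, edgeR adjusted p = 3.35e-06), or 5.77-fold.

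Cd22 (chromosome 7, 30564827 to 30579767, minus strand) is a sialic acid-binding receptor that restrains B cell receptor signalling. It ran from 1.08 to 5.13 CPM with a median of 2.82 CPM in model livers, against 0.290 to 0.617 CPM with a median of 0.478 CPM in control livers. The groups did not overlap, and model mice 17 and 15 were the highest. Its log2 fold change was 2.62 (SE 0.34, edgeR adjusted p = 2.70e-07), or 6.14-fold.

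Cd79a and Cd79b, the paired signal chains of the receptor, rose less. Cd79a (chromosome 7, 24596806 to 24601622, plus strand) ran from 0.315 to 1.02 CPM with a median of 0.639 CPM in model livers, against 0.248 to 0.499 CPM with a median of 0.295 CPM in control livers. In 16 of 18 model mice it was above every control, model mice 9 and 18 lying within the control range. Its log2 fold change was 1.11 (SE 0.22, edgeR adjusted p = 1.04e-04). Cd79b (chromosome 11, 106202167 to 106205588, minus strand) ran from 0.854 to 2.44 CPM with a median of 1.66 CPM in model livers, against 0.290 to 1.22 CPM with a median of 0.536 CPM in control livers. The groups overlapped, with 13 of 18 model mice above every control and controls 1 and 2 standing above the other controls. Its log2 fold change was 1.23 (SE 0.24, edgeR adjusted p = 8.03e-05). Cd79a rests on 8 to 17 counts in a control library and 14 to 44 in a model library, so single-library values are coarse.

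**Figure D1:**
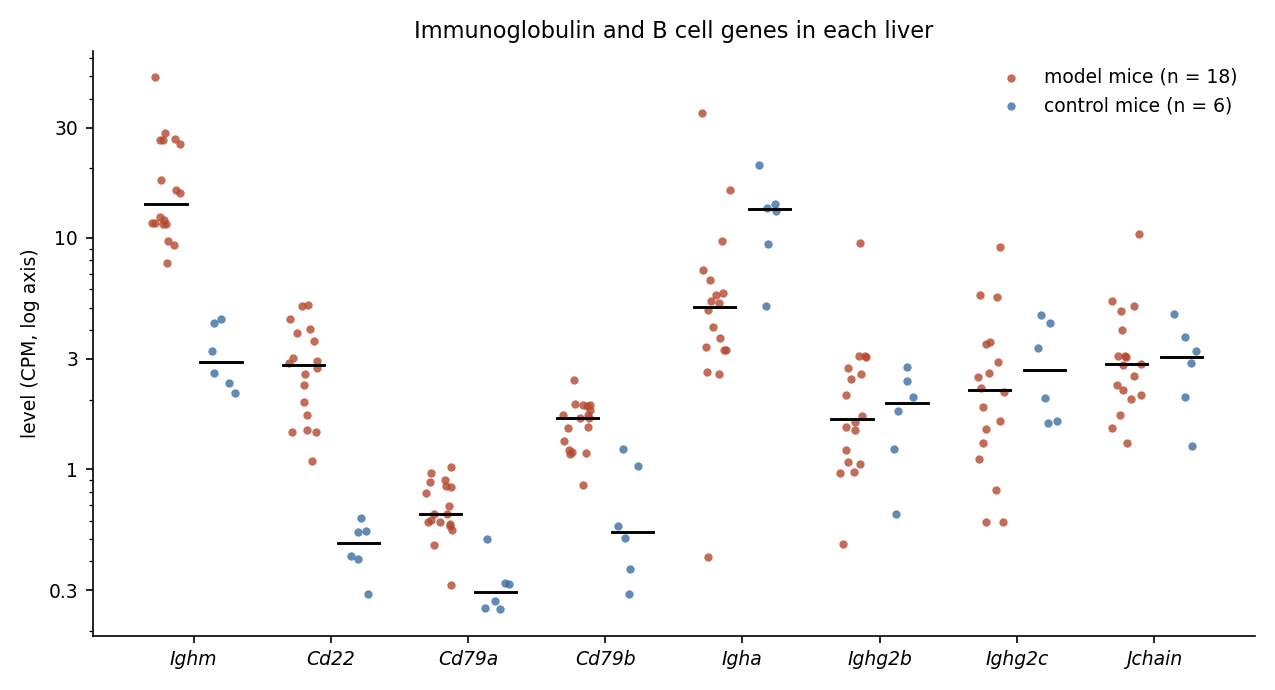
Level in CPM on a log axis of the 8 tested genes in each mouse, with model mice on the left of each pair and control mice on the right; black lines are medians. Ighm and Cd22 do not overlap between the groups, while Igha, Ighg2b, Ighg2c and Jchain overlap and spread most among model mice.

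Igha (chromosome 12, 113218450 to 113223856, minus strand) ran from 0.418 to 34.9 CPM with a median of 5.05 CPM in model livers, against 5.08 to 20.6 CPM with a median of 13.3 CPM in control livers. In 9 of 18 model mice it was below every control, while model mouse 16 was above every control. Igha averaged 6.93 ± 7.75 CPM in model and 12.6 ± 5.17 CPM in control livers, and the log2 fold change of -0.87 (SE 0.49, edgeR adjusted p = 0.128) did not pass the test. This turned on model mouse 16 and on the method. Without that mouse the log2 fold change was -1.26 (edgeR adjusted p = 0.00544), and Igha was called lower. With all libraries it was also called lower by limma-voom (-1.29, adjusted p = 0.0161). It was called lower too with same-numbered mice paired in a block (-1.07, edgeR adjusted p = 0.00582). That fold change rests on the model mice that share a number with a control, so mouse 16 does not bear on it. The adjusted p over the other alternatives with all libraries ran from 0.123 to 0.533.

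Ighg2b (chromosome 12, 113266585 to 113271553, minus strand) and Ighg2c (chromosome 12, 113248945 to 113252552, minus strand) encode the mouse IgG2 classes of this locus. Ighg2b ran from 0.474 to 9.50 CPM with a median of 1.65 CPM in model livers, against 0.642 to 2.77 CPM with a median of 1.92 CPM in control livers. Ighg2c ran from 0.592 to 9.17 CPM with a median of 2.20 CPM in model livers, against 1.59 to 4.62 CPM with a median of 2.68 CPM in control livers. Both overlapped widely between the groups, and for both model mouse 16 was the highest and model mouse 8 the lowest. The log2 fold changes were 0.31 for Ighg2b (SE 0.43, edgeR adjusted p = 0.545) and -0.10 for Ighg2c (SE 0.44, edgeR adjusted p = 0.864), with approximate 95% intervals from -0.53 to 1.15 and from -0.96 to 0.77. These are similar genes of 1 family, and how the counting treated reads that match both was not given in the sources used here. Their first constant exons, of 291 bases each in GENCODE vM21 transcripts (GRCm38), were 87.6% identical, with 36 differing bases and a longest identical run of 34 bases. The 120 bases that differ most are shown 5′ to 3′, from chr12:113307646-113307765 for Ighg2b and chr12:113288645-113288764 for Ighg2c, both on the minus strand, with the 21 differing bases in capitals.
Ighg2b: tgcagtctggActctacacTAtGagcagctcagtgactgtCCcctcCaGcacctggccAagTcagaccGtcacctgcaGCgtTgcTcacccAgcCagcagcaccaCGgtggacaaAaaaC
Ighg2c: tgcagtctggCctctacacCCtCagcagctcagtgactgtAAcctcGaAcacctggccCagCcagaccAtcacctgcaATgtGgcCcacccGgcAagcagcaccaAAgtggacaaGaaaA

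Jchain (chromosome 5, 88667668 to 88675750, minus strand) ran from 1.30 to 10.4 CPM with a median of 2.84 CPM in model livers, against 1.26 to 4.69 CPM with a median of 3.06 CPM in control livers. Only 4 of 18 model mice were above every control, none was below, and model mouse 16 was the highest. The log2 fold change was 0.17 (SE 0.34, edgeR adjusted p = 0.689), with an approximate 95% interval from -0.50 to 0.83. A change as large as that of Ighm or Cd22 thus lay outside the interval.

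Mzb1 and Igkc were too low to be tested. Mzb1 (chromosome 18, 35780320 to 35782420, minus strand) had 94 counts over 18 model libraries and 28 over 6 control libraries, and 57.2% of its exon bases were also exons of a neighbouring gene on the same strand with 1 count. Igkc (chromosome 6, 70703419 to 70703950, plus strand) had 3 counts over the model libraries and 0 over the controls, a limit of at most 3 counts in 31.6 M or 0.0949 CPM in the shallowest library. Its kappa variable segments together had 105 to 937 counts a library, and 97.9% of the 532 exon bases of Igkc also lay in an annotated gene on the opposite strand with 0 counts. The Igkc row therefore gives no usable level of kappa transcripts. Shared exon bases made up 8.79% of Cd79a and 11.7% of Cd22, and the remaining 6 genes shared none. How the counting treated reads in shared exons is not given in the sources used here.

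Per kilobase of exon, Ighm had the highest level of the 10 genes in model livers and Igha in control livers. In model livers Ighm averaged 9.72 ± 5.56 CPM per kilobase, followed by Igha at 2.60 ± 2.91, Ighg2c at 2.06 ± 1.64, Jchain at 1.33 ± 0.848 and Cd79b at 1.11 ± 0.265 CPM per kilobase. Below them came Ighg2b at 0.844 ± 0.743, Cd22 at 0.571 ± 0.251, Cd79a at 0.476 ± 0.128, Mzb1 at 0.0996 ± 0.0688 and Igkc at 0.00590 ± 0.0175 CPM per kilobase. In control livers the order was Igha at 4.74 ± 1.94, Ighg2c at 2.20 ± 1.02, Ighm at 1.69 ± 0.532, Jchain at 1.18 ± 0.483 and Ighg2b at 0.678 ± 0.292 CPM per kilobase. It went on with Cd79b at 0.463 ± 0.261, Cd79a at 0.219 ± 0.0647, Mzb1 at 0.119 ± 0.0489, Cd22 at 0.0929 ± 0.0233 and Igkc at 0 CPM per kilobase. Neighbours in these orders overlapped within 1 SD, except Cd79a with Mzb1 and Mzb1 with Igkc in model livers and Cd22 with Igkc in control livers. By mean level Cd22 stood above Cd79a in model livers, where they overlapped within 1 SD, and below it in control livers.

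IgM took a larger and IgA a smaller share of the antibody classes in model livers. Among the counts of 8 heavy chain constant genes, Ighm took 33.7% to 84.7% with a median of 55.8% in model livers, against 8.25% to 20.7% with a median of 15.5% in control livers. Igha took 0.714% to 41.3% with a median of 20.2% in model livers, against 44.8% to 65.2% with a median of 57.2% in control livers. All 18 model mice had a larger Ighm share and a smaller Igha share than any control. The 4 IgG genes together took 6.83% to 27.4% with a median of 16.0% in model livers, against 16.2% to 31.4% with a median of 25.3% in control livers. These IgG shares overlapped, with 9 of 18 model mice below every control. Per kilobase the picture was alike, with median shares of 59.4% for Ighm and 15.1% for Igha in model livers, against 18.5% and 47.6% in control livers. The shares rest on 571 to 3029 heavy chain constant counts in a model library and 353 to 1273 in a control library.

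**Figure D2:**
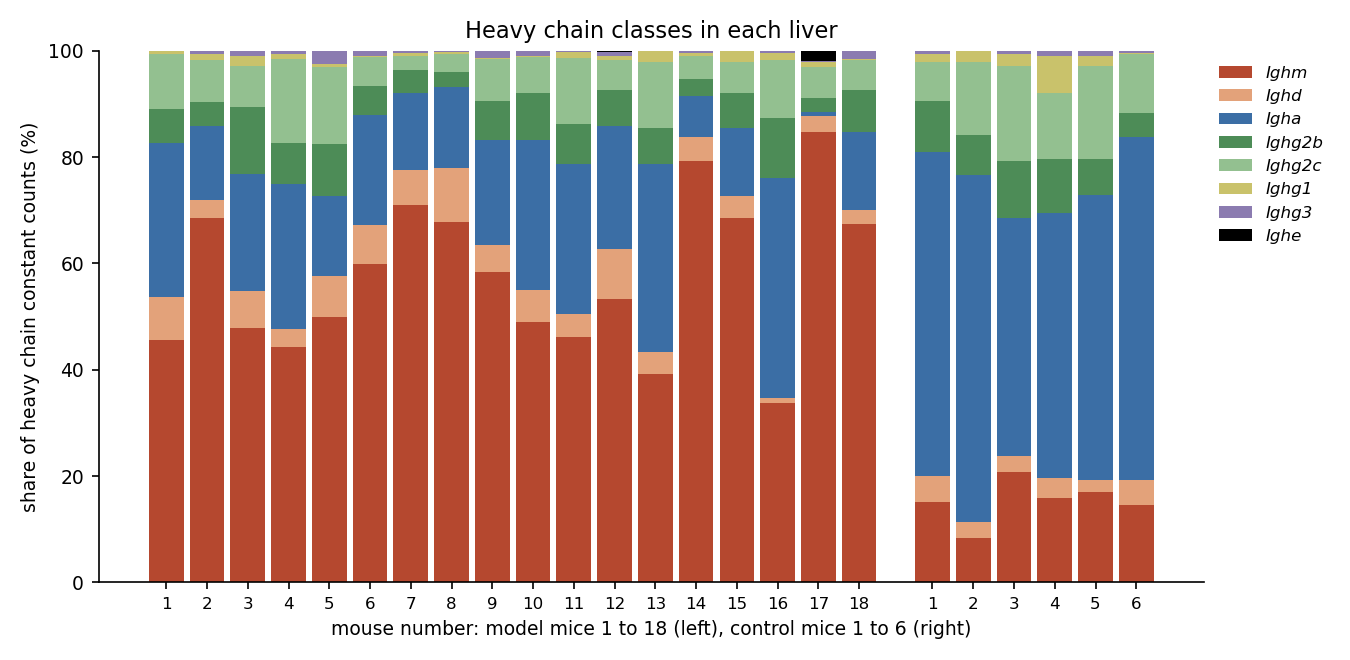
Share in percent of heavy chain constant counts taken by each of 8 genes, with 1 bar for each of model mice 1 to 18 on the left and control mice 1 to 6 on the right. Ighm takes at least 33.7% in every model mouse and at most 20.7% in every control, and Igha takes at least 44.8% in every control.

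Ratios of 2 genes within a library, which library scaling cannot move, were compared with two-sided exact permutation tests over 134596 divisions of the mice, adjusted over 9 ratios that share denominators. The Igha to Ighm ratio ran from 0.00866 to 1.23 with a median of 0.343 in model livers, against 2.16 to 7.87 with a median of 3.57 in control livers. No model mouse reached the control range. The mean log2 ratio differed by -3.67, or 12.7-fold lower in model livers (exact p = 7.43e-06, the smallest possible, adjusted p = 3.34e-05). The Ighg2b to Ighm ratio differed by -2.27 (adjusted exact p = 4.46e-05, lower than every control in 17 of 18 model mice). The Ighg2c to Ighm ratio differed by -2.73 (adjusted exact p = 3.34e-05, lower in 18 of 18). The IgG2 classes therefore stood lower relative to IgM as well, although neither Ighg2b nor Ighg2c was called lower itself. The Ighg2c to Ighg2b ratio differed by -0.47 and did not pass (adjusted exact p = 0.137). It passed without control 1, with a difference of -0.68 (adjusted exact p = 0.034). The Igha to Ighm difference was -3.48 without model mice 16 and 17, a setting chosen after seeing the data.

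**Figure D3:**
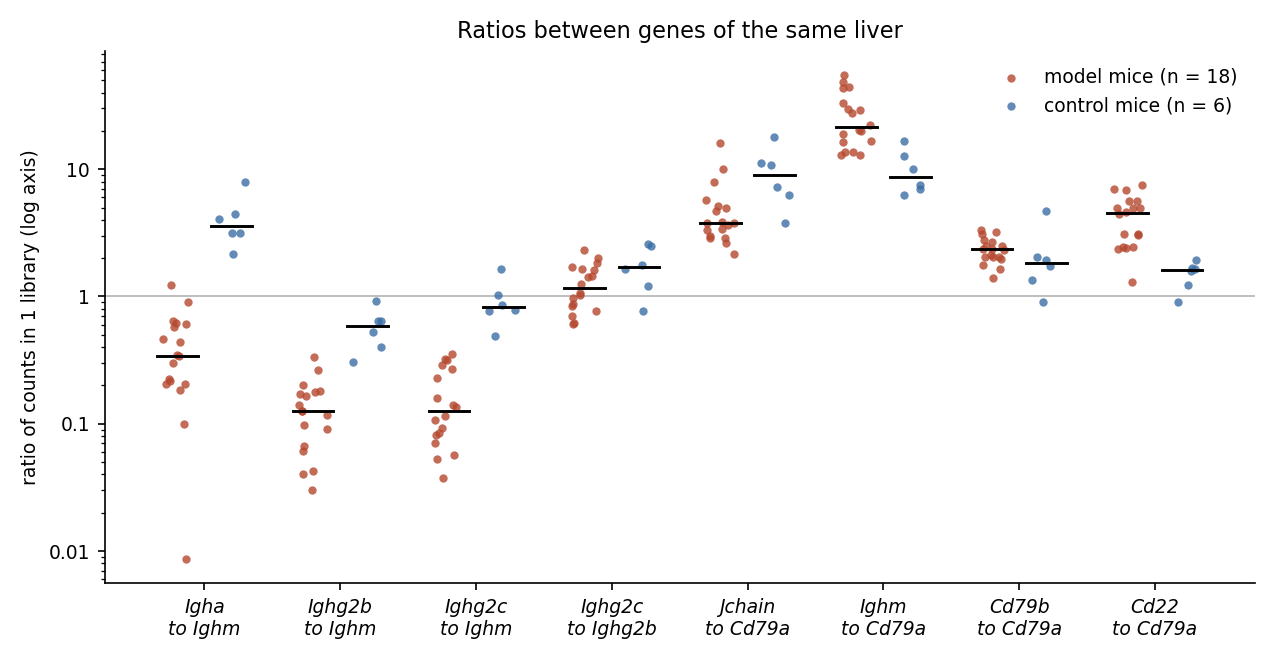
Ratio of the counts of 2 genes in the same library on a log axis, with model mice on the left of each pair and control mice on the right; black lines are medians and the grey line marks equal counts. The Igha to Ighm ratio is at most 1.23 in model mice and at least 2.16 in controls, and the Cd22 to Cd79a ratio lies higher in model mice.

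Jchain and Mzb1 stood lower relative to Cd79a in model livers, Ighm and Cd22 stood higher, and summed kappa variable segments did not pass. The Jchain to Cd79a ratio ran from 2.17 to 16.0 with a median of 3.77 in model livers, against 3.76 to 18.0 with a median of 8.87 in control livers. The groups overlapped, 9 of 18 model mice being below every control. The mean log2 ratio differed by -0.98 (exact p = 0.0102, adjusted p = 0.0131), and without control 2 it differed by -0.76 and no longer passed (adjusted exact p = 0.0515). The Mzb1 to Cd79a ratio differed by -1.65 (adjusted exact p = 0.0131, lower than every control in 10 of 18 model mice) on at most 12 Mzb1 counts a library. The Ighm to Cd79a ratio had a median of 21.3 in model and 8.66 in control livers, a log2 difference of 1.33 (adjusted exact p = 5.62e-04, above every control in 12 of 18 model mice). The Cd22 to Cd79a ratio had a median of 4.53 in model and 1.61 in control livers, a difference of 1.41 (adjusted exact p = 2.17e-04, above every control in 17 of 18 model mice). The Cd79b to Cd79a ratio, between the 2 chains of 1 complex, differed by 0.31 and did not pass (adjusted exact p = 0.188). Without control 2 that difference was 0.58 and passed (adjusted exact p = 0.00793). Summed kappa variable segments, used after the Igkc row proved empty, gave a log2 difference of -0.50 relative to Cd79a (exact p = 0.122) and of -1.83 relative to Ighm (exact p = 7.43e-06, lower in 18 of 18 model mice).

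Other genes of B cell identity rose as well. Of 13 reported here, 10 were tested, and all 10 rose, also without model mice 16 and 17, the median log2 fold change being 1.47. Over all genes 31.2% were called higher. Cd37, a membrane protein of mature B cells, averaged 3.44 ± 1.21 CPM in model and 0.730 ± 0.481 CPM in control livers (log2 fold change 2.23, SE 0.32, edgeR adjusted p = 1.45e-06). Fcmr, the receptor for IgM, averaged 0.409 ± 0.109 CPM in model and 0.104 ± 0.0642 CPM in control livers (log2 fold change 1.91), with all 18 model mice above every control. Ms4a1, which encodes CD20, and Pax5, the factor that holds B cell identity, also rose, with log2 fold changes of 1.38 and 1.09. Ebf1, Vpreb3 and Tnfrsf13c were too low to be tested. Of 13 genes of B cell receptor signalling, 12 rose, those with the lowest p being Plcg2 (2.81) and Syk (2.64), enzymes that macrophages also use. Lyn did not pass (0.12, edgeR adjusted p = 0.176), but was called higher with factors by upper quartile (0.21, edgeR adjusted p = 0.0178) and on library totals alone (0.46).

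Genes of plasma cells and secretion moved in both directions. Of 15 listed, 14 were tested, of which 3 rose, 5 fell and 6 did not pass (median log2 fold change -0.17), with 31.2% higher and 28.8% lower over all genes, so the counts alone do not set this list apart. With library totals alone, 7 were called higher and 3 lower. The 3 that rose were Slamf7, a surface receptor also of other lymphocytes and of macrophages (3.59, SE 0.37, edgeR adjusted p = 1.08e-08), Prdm1, the factor that drives plasma cell formation (2.64, SE 0.36, edgeR adjusted p = 5.96e-07), and Irf4, a factor it works with (2.02). Prdm1 averaged 0.881 ± 0.333 CPM in model and 0.140 ± 0.0962 CPM in control livers. The 5 that fell were Ell2, Sdc1, Txndc5, Creld2 and Tent5c, with log2 fold changes from -0.83 to -0.34. With library totals alone, Txndc5 (-0.01) and Tent5c (-0.12) were no longer called. Sdc1, which encodes the plasma cell marker CD138 and is also made by hepatocytes, averaged 237 ± 29.4 CPM in model and 374 ± 59.9 CPM in control livers, far above Jchain in both. All 6 listed hepatocyte genes fell as well, with the lowest p for Tat (-2.02) and Hnf4a (-0.93), their summed level running from 52735 to 111360 CPM in model and from 114460 to 178180 CPM in control livers. Of these, Ttr was not called with upper-quartile factors and changed sign with library totals alone. Their part in the secretory genes was not tested.

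**Figure D4:**
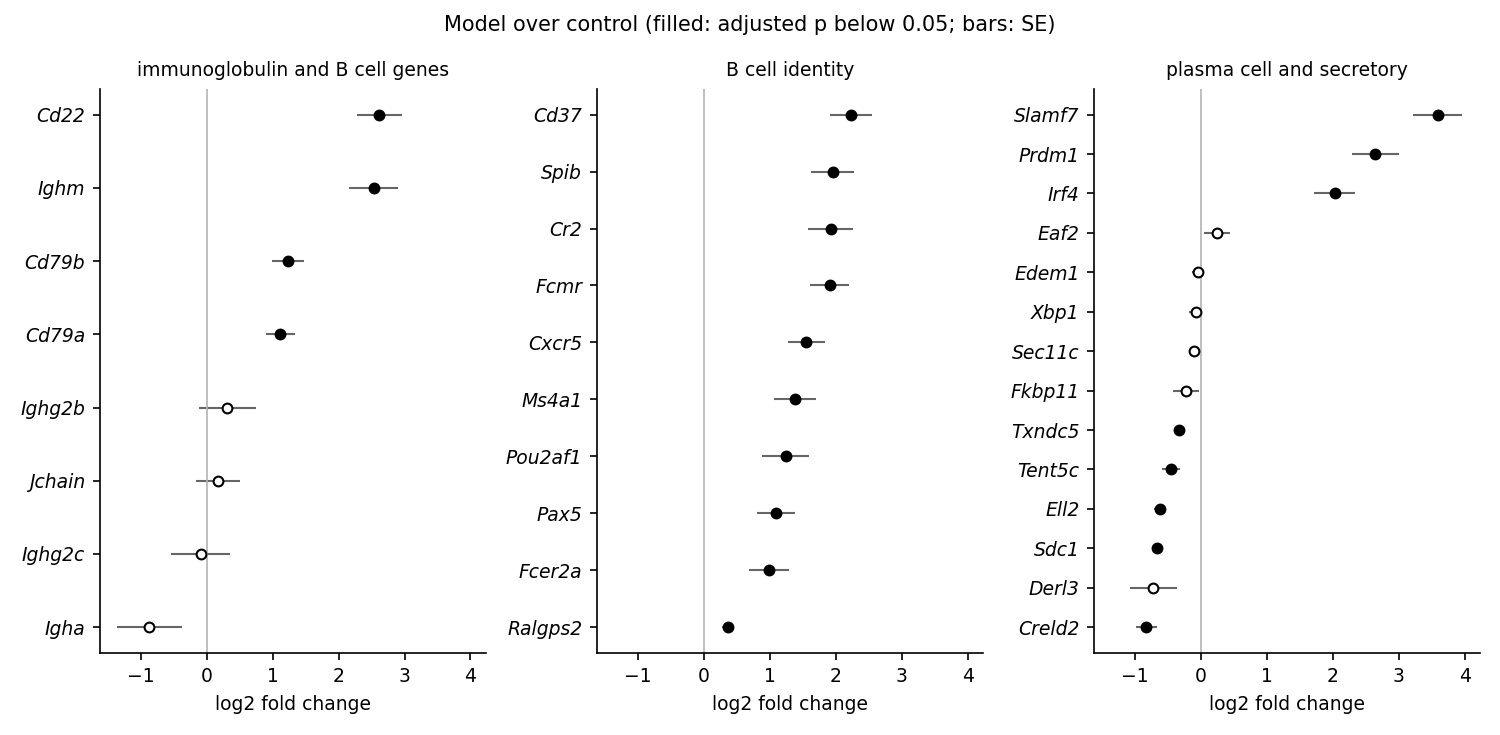
Log2 fold change of model over control for the 8 tested immunoglobulin and B cell genes, 10 genes of B cell identity and 14 genes of plasma cells and secretion, with bars of 1 SE; filled points have an adjusted p below 0.05. All 10 B cell identity genes lie above 0, while the plasma cell and secretory genes lie on both sides.

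Of 5 other constant region genes tested, 1 was called, against 60% of all genes (31.2% higher and 28.8% lower). Ighd, the IgD heavy chain of resting B cells, rose, averaging 1.45 ± 0.371 CPM in model and 0.784 ± 0.277 CPM in control livers (log2 fold change 0.88, SE 0.21, edgeR adjusted p = 8.95e-04). Ighg1 did not pass (-0.89, SE 0.60, edgeR adjusted p = 0.205), nor did the lambda genes Iglc1 (0.71, 0.117), Iglc2 (0.51, 0.0549) and Iglc3 (0.42, 0.330), given with log2 fold change and edgeR adjusted p. Iglc2 was called higher with factors by upper quartile (0.60, edgeR adjusted p = 0.0284), and Iglc1 (1.05) and Iglc2 (0.85) were on library totals alone. Ighg3 had 157 counts in model and 24 in control libraries, and Ighe had 53 and 0, so neither was tested. Genes of class switching and germinal centres gave 2 that rose, Mybl1 (2.36) and S1pr2 (0.71), 1 that fell, Ung (-0.69), and Bcl6, which did not pass (0.22, edgeR adjusted p = 0.525). Mef2b and Gcsam were too low to be tested, and Rgs13 had 0 counts in every library.

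Among genes of B and plasma cell survival and homing, 11 of 18 tested rose, 3 fell and 4 did not pass. Over all genes 31.2% were called higher and 28.8% lower. Cd40, the receptor through which T cells help B cells, and Tgfb1, a cytokine that favours IgA switching, rose with log2 fold changes of 2.93 and 2.22. Tnfsf13b, the B cell survival factor BAFF, averaged 0.664 ± 0.291 CPM in model and 0.198 ± 0.101 CPM in control livers (log2 fold change 1.75, SE 0.36, edgeR adjusted p = 1.65e-04). Cxcl12, which retains plasma cells, fell by 0.87 on the log2 scale, averaging 257 ± 50.5 CPM in model and 470 ± 34.5 CPM in control livers. Il6ra fell by 1.45 and Ccl21a by 1.90 on the log2 scale. Cxcl13 (-0.23), Ccr9 (-0.17), Ccl25 (-0.20) and Ccl28 (-0.59) did not pass, with edgeR adjusted p from 0.0571 to 0.833, though Ccl25 was called lower with RLE factors (-0.21, edgeR adjusted p = 0.0438). Of 3 antibody transport genes, Fcgrt, the receptor that recycles IgG, fell by 0.49 and Fcamr, a receptor for IgM and IgA, by 1.08 on the log2 scale, but neither was called with library totals alone. Pigr, which carries polymeric IgA into bile, averaged 1579 ± 314 CPM in model and 1447 ± 115 CPM in control livers and did not pass (0.13, edgeR adjusted p = 0.399), while with library totals alone it was called higher (0.45).

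Markers of other cell types and of neighbouring organs also moved, where over all genes 31.2% were called higher and 28.8% lower. Of 12 T and NK cell genes 11 rose, with the lowest p for Cd8b1 (3.97) and Cd2 (1.57) and with Klrb1c (0.15) not passing, their summed level running from 3.31 to 15.5 CPM in model and from 2.99 to 4.80 CPM in control livers. Of 8 macrophage genes all 8 rose, with the lowest p for Lyz2 (3.94) and Cd68 (3.69) on the log2 scale (174 to 607 CPM in model, 38.9 to 92.3 CPM in control livers). Of 8 tested genes of plasmacytoid dendritic cells, which can express Jchain and Mzb1, 7 rose, with the lowest p for Ly6d (5.95) and Irf8 (1.81) (180 to 409 CPM in model, 108 to 136 CPM in control livers). Ccr9 (-0.17) did not pass. Most of this summed level was Bst2 and Ly6d, which averaged 156 and 103 CPM in model and 110 and 1.66 CPM in control livers. Siglech rose (1.99) but averaged only 0.313 ± 0.137 CPM in model and 0.0755 ± 0.0551 CPM in control livers. All 3 tested red cell genes fell (66.7 to 147 CPM in model, 126 to 184 CPM in control livers), with Hbb-bs at 0 in every library. Of these 3, Hbb-bt (-0.88), Alas2 (-0.31) and Hba-a1 (-0.71), none was called with library totals alone, where Alas2 changed sign, and only Hbb-bt was called with upper-quartile factors. Of 3 platelet genes Pf4 rose (2.22), and Itga2b (-0.27) and Ppbp (-0.08) did not pass (2.70 to 4.99 CPM in model, 2.16 to 3.58 CPM in control livers). Of 4 tested genes of lymph node stroma Cr2 (1.92) and Ccl19 (1.79) rose, Ccl21a (-1.90) fell and Cxcl13 did not pass (0.517 to 5.47 CPM in model, 1.38 to 3.97 CPM in control livers), and Madcam1 was too low to be tested. Of 3 tested genes of intestine and pancreas Fabp2 (0.92) rose, Cela2a (-1.89) fell and Vil1 (0.53) did not pass (58.0 to 102 CPM in model, 27.5 to 50.5 CPM in control livers), while Lct, Prss2 and Pnlip had at most 18 counts over the model libraries. Their part in the results above was not tested.

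The antibody genes were among the most variable of all genes within the model group. The SD of log2 CPM over the 18 model mice stood at the 99.4th percentile of all tested genes for Igha, the 98.7th for Ighg2c, the 97.7th for Ighg2b, the 94.5th for Jchain and the 94.4th for Ighm. This percentile was 92.4 for Cd22, 68.0 for Cd79a and 63.2 for Cd79b. The highest model mouse exceeded the lowest 83.5-fold for Igha, 20.1-fold for Ighg2b, 15.5-fold for Ighg2c, 8.02-fold for Jchain and 6.38-fold for Ighm, against 3.24-fold for Cd79a and 2.85-fold for Cd79b. Model mice 16 and 17 were the extremes. Mouse 16 was first of 18 for Igha, Ighg2b, Ighg2c and Jchain and second for Ighm, but ninth for Cd79a and twelfth for Cd79b. Mouse 17 was first for Ighm, Cd79a, Cd79b and Cd22 and second for Jchain, but last for Igha. Mouse 16 had 1251 Igha counts, 41.3% of its heavy chain constant counts (95% Wilson interval 39.6% to 43.1%), and mouse 17 had 18, or 0.714% (0.452% to 1.13%). In the summed marker lists mouse 16 was first for plasma cell and secretory genes (918 CPM) and for plasmacytoid dendritic cells (409 CPM). For plasma cell and secretory genes mouse 8, the lowest for Jchain, Ighg2b and Ighg2c, was close behind at 915 CPM. Mouse 16 was last for B cell identity (30.8 CPM, most of it Ralgps2) and for red cells (66.7 CPM). Over model mice most of the plasma cell and secretory sum was Sdc1, Xbp1 and Txndc5, averaging 237, 191 and 157 CPM. Slamf7, Prdm1 and Irf4 averaged 2.73, 0.881 and 0.532 CPM there. Most of the plasmacytoid sum was Bst2 and Ly6d. Mouse 17 was 17th for plasma cell and secretory genes (755 CPM) and 6th for B cell identity (42.3 CPM), and second for macrophages (543 CPM) and for T and NK cells (15.2 CPM). Intervals here cover counting error only.

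Across the 18 model mice, 8 pairs of genes were correlated on log2 CPM, with two-sided permutation p-values from 100000 resamples adjusted over the pairs. Ighg2b and Ighg2c went together (Pearson r = 0.83, permutation p = 1e-05, adjusted p = 8e-05; Spearman rho = 0.74, adjusted p = 0.00536), and r was 0.71 without mice 8 and 16. Cd79b with Cd79a had r = 0.63 (permutation p = 0.00515, adjusted p = 0.0206) but rho = 0.41 (adjusted p = 0.165). Without mice 9 and 17 r was 0.26, so the relation rested on those mice, and it no longer passed without mouse 9 (0.42, adjusted permutation p = 0.247) or mouse 17 (0.56, adjusted permutation p = 0.0533) alone. Igha with Jchain had r = 0.40 (permutation p = 0.104, adjusted p = 0.254) and rho = 0.43, and r was 0.70 without mice 16 and 17. Without mouse 17 alone r was 0.84 (adjusted permutation p = 4e-04), and without mouse 16 alone it was 0.07 (adjusted permutation p = 0.803). Igha with Ighm had r = -0.16 and rho = 0.04 (permutation p = 0.533 and 0.881). Ighm with Cd79a had 0.36 and 0.40 (permutation p = 0.143 and 0.103), and Cd22 with Cd79a 0.27 and 0.24 (permutation p = 0.272 and 0.339). Jchain with Cd79a had 0.29 and 0.41 (permutation p = 0.237 and 0.0916), and Jchain with Mzb1 0.35 and 0.31 (permutation p = 0.159 and 0.207). None of these 5 passed, with adjusted p of at least 0.165. Ighm with Jchain, a pair chosen after seeing the data, had r = 0.74 and rho = 0.85 (permutation p = 0.00048 and 4e-05), and r = 0.69 without mice 16 and 17. Summed kappa variable segments had r = 0.92 with Jchain and 0.89 with Ighm (permutation p = 1e-05 for each), against 0.43 with Cd79a (permutation p = 0.077). The 2 genes of a pair share their library and its scaling. Cd79a had 14 to 44 counts in a model library and Jchain 44 to 375, so counting noise weakens correlations with Cd79a more.

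Of 14895 other genes with at least 0.5 CPM in model mice, those most like Jchain over the 18 mice by Spearman rho were Ighm (0.85), Fndc5 (0.83), Sgce (0.82), Map2 (0.80) and Ltbp1 (0.80). Those most like Cd79a were lower, at 0.68 for an unnamed gene, 0.67 for Gm10451, 0.66 for Fam117b and Fam189b and 0.64 for Gnb4. No gene of the 10 was among the 5 most like Cd79a. Cd79a had only 14 to 44 counts in a model library, against 44 to 375 for Jchain. Counting noise lowers such values, so the 2 lists are not on equal terms.

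Variable segments, whose choice differs from B cell to B cell, set model mouse 17 apart. In that mouse Ighv1-9 took 211 of 357 heavy chain variable counts, or 59.1% (95% Wilson interval 53.9% to 64.1%), and Igkv5-39 took 533 of 937 kappa variable counts, or 56.9% (53.7% to 60.0%). In the other 17 model mice the leading segment took 7.35% to 17.8% of heavy chain variable counts and 7.29% to 19.8% of kappa variable counts. In controls it took 8.00% to 16.7% and 6.55% to 15.3%. The same mouse had 50 Ighe counts, while no other library had more than 2. The reference variable exons of both segments (GENCODE vM21, GRCm38) are shown 5′ to 3′, because these segments took most of that mouse's variable counts. At most the last 300 bases of an exon are given. Capitals mark the 9 bases that end with the codon of the conserved cysteine before the third hypervariable loop. Ighv1-9 is given at chr12:114583569-114583868 and Igkv5-39 at chr6:69900424-69900721, both on the minus strand.
Ighv1-9: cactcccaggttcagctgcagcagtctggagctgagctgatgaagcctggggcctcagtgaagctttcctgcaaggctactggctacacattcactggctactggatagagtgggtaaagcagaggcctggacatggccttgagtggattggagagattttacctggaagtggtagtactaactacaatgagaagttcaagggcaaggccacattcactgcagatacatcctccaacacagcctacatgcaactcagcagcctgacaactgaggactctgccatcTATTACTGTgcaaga
Igkv5-39: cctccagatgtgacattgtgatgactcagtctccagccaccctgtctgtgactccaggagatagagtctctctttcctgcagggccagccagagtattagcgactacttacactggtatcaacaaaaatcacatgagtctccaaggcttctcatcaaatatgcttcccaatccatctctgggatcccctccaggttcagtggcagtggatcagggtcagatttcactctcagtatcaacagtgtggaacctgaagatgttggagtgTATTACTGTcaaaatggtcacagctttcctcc
Variable segments have many near-identical copies, and the reference is not the rearranged or mutated sequence of any cell.

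**Figure D5:**
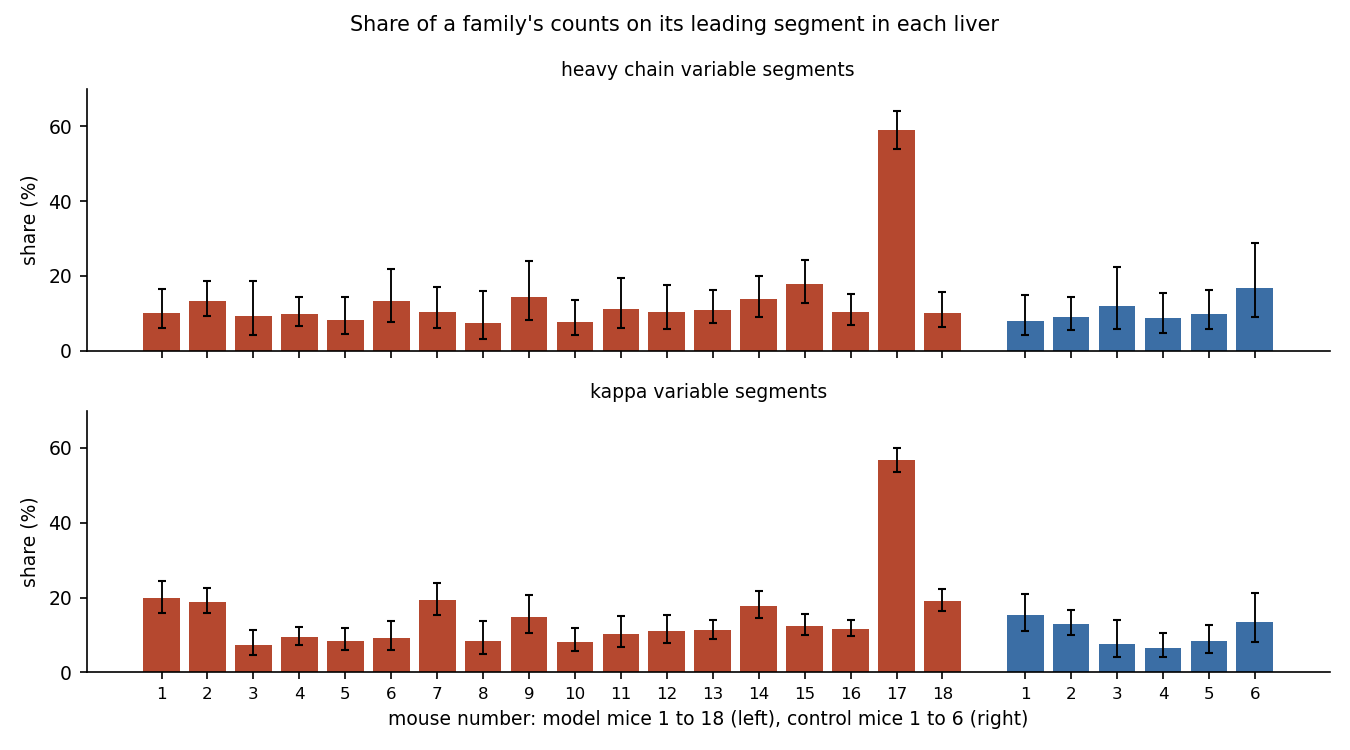
Share in percent of all heavy chain variable counts (top) and of all kappa variable counts (bottom) taken by the leading segment of each mouse, with model mice 1 to 18 on the left, control mice 1 to 6 on the right and bars of the 95% Wilson interval. Model mouse 17 stands at 59.1% and 56.9%, and every other mouse is at or below 19.8%.

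Summed over segments, kappa variable counts ran from 4.09 to 24.1 CPM with a median of 7.99 CPM in model livers, against 3.55 to 9.19 CPM with a median of 6.50 CPM in control livers. Heavy chain variable counts ran from 1.71 to 8.28 CPM with a median of 2.92 CPM in model livers, against 1.83 to 4.37 CPM with a median of 3.49 CPM in control livers. Both overlapped widely, with 8 and 4 of 18 model mice above every control. Of 160 kappa segments listed 11 were tested and 3 rose, against 31.2% of all genes, and neither of 2 tested heavy chain segments nor the 1 tested lambda segment was called. Igkv5-39, the kappa segment with the most counts, had a log2 fold change of 3.94 (SE 1.21, edgeR adjusted p = 0.00727), and without model mouse 17 of 2.67 (SE 0.52, edgeR adjusted p = 8.93e-05). Igkv1-110 averaged 0.671 ± 0.547 CPM in model and 0.328 ± 0.122 CPM in control livers and did not pass (1.05, edgeR adjusted p = 0.0648), but was called higher with factors by upper quartile (1.15, edgeR adjusted p = 0.0478) and on library totals alone (1.39). Ighv1-9 and Ighv1-26, the heavy chain segments with the most counts, averaged 0.350 ± 1.14 and 0.226 ± 0.169 CPM in model and 0.206 ± 0.101 and 0.180 ± 0.0835 CPM in control livers. Iglv1 averaged 0.470 ± 0.293 CPM in model and 0.327 ± 0.155 CPM in control livers (log2 fold change 0.49, edgeR adjusted p = 0.303), and Iglv2 averaged 0.148 ± 0.0825 and 0.0489 ± 0.0278 CPM.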

How the data were processed

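Per the labels' protocols, liver RNA was isolated by the Trizol method and polyadenylated RNA, pulled down with oligo(dT), was made into DNA nanoball libraries. The authors deposited raw read counts per Ensembl gene with exon positions and exon length. Per the submitters' processing notes the build was GRCm39. The aligner, counter, strand setting and annotation release were not given in the sources used here.

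Of 78298 IDs, 51498 matched a symbol, holding 99.57% of counts. For 58 symbols shared by several IDs, the symbol went to the ID with the highest count. Depth was 31.6 M to 58.4 M counts, so 3 counts stood for 0.0514 to 0.0949 CPM. Every pair of libraries within a group differed by more than sampling noise (chi-square per degree of freedom at least 19.1, 168 pairs). The labels name mice, with 1 library each, and no litter, cage or day.

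The test was edgeR 4.0.16 (R 4.3.3) quasi-likelihood on all 24 libraries, robust, with TMM factors and edgeR's own filter on low counts by group. SE is the absolute log2 fold change over the square root of F, and approximate 95% intervals rest on it. Script steps were tested on simulated data. Ratios used log2 of counts plus 0.5, and correlations log2 CPM with a prior count of 2. Tried in their place were DESeq2 1.42.0, limma-voom 3.58.1, library totals alone, factors by upper quartile or RLE, other filters and thresholds, thinning, immunoglobulin genes left out of scaling, a clock gene index, a replicate block, other pseudocounts and prior counts, and each library left out. Python 3.11.15 with scipy 1.17.1 was used for the rest.

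The members and lists were chosen with earlier results of these data known. All 10 members are named. From each other list come the 2 called genes with the lowest p in each direction and, where fewer than 5 did not pass, those. Likeness gives the 5 genes with the highest rho. For variable segments they are the 2 with the most counts in a family. Ms4a1, Pax5, Ralgps2, Irf4, Xbp1, Txndc5, Creld2, Tent5c, Tnfsf13b, Alb, Ttr, Hba-a1, Bst2, Siglech and untested genes are named beyond that rule, after their values were seen. Some genes of the lists are not reported here. Ratios and correlations with Igkc and the correlation with Hbb-bs, which were planned, were left out because those rows were empty or nearly so. Sequences come from RefSeq (GRCm38.p6) and GENCODE vM21 (GRCm38), and gene coordinates from the deposited table (GRCm39).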

Additional observations from a re-analysis of the deposited data

Results flagged for a closer look

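Model mouse 17 had 50 counts of Ighe, the IgE heavy chain gene, which was too low overall to be tested, while the 6 controls had 0 and no other model mouse had more than 2. In that mouse Ighe took 1.98% of heavy chain constant counts (95% Wilson interval 1.51% to 2.61%). Among the 6 controls, control 1 had the highest Cd79a, 0.499 CPM on 17 counts, and its gap to the next control was 0.708 of the whole range (0.70755), which is more than 6 samples usually show. The limit used for such gaps, Dixon's at 95%, is by its definition passed by chance in about 1 of 20 groups, and 9 genes and 9 ratios were examined. Without control 1 the Cd79a log2 fold change was 1.29, against 1.11 with all libraries.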

How the results depend on the processing

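The calls of Ighm, Cd79b and Cd22 held in every alternative run. Cd79a held in all but the filter of 1 CPM in 6 libraries, where it was not tested, so 3 members were called there. Calls over all genes ran from 7805 to 11070 against 10480, and 4 or 5 members were called in the remaining alternatives. The replicate block, in which mice of the same number are paired, gave 7805 calls and added Igha (-1.07, edgeR adjusted p = 0.00582). Its fold changes rest on the model mice that share a number with a control, which leaves out model mice 16 and 17. The labels do not say that the numbers pair mice. With each gene's group mean subtracted from its log2 CPM, same-numbered libraries correlated at -0.293 to 0.0674. The Jchain to Cd79a difference ran from -1.21 to -0.76 as each library was left out, failing the test without control 2, and the count of correlations that passed ran from 1 to 2 and was 1 without model mouse 9. The cause was not tested. Without model mice 16 and 17 together 5 members were called, Igha among them (-1.18, edgeR adjusted p = 0.00222). With an index of clock genes as a covariate, which ran from 2.58 to 3.94 in model and from -1.07 to 4.63 in control livers, 7937 genes and 4 members were called. The Igha fold change with library totals alone was -0.51 (edgeR adjusted p = 0.399). The 3 ratios to Ighm kept their side of the threshold throughout. Among single genes, correlations and the ratios other than these and Jchain to Cd79a, 147 values under other settings and 450 with a library left out kept their side of the threshold, while 5 and 6 did not. Low counts limit Cd79a, Mzb1 and Igkc most.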

Other observations

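The genes most like Ighm over the 18 model mice, listed after the data were seen, were Dkk3 (Spearman rho 0.93), Ltbp1 (0.89), Eid2 (0.88), Tnfaip8l2 (0.87) and Mmp2 (0.87). Ltbp1 encodes a matrix protein that holds latent TGF-beta, Dkk3 a secreted relative of the Dickkopf Wnt inhibitors, and Mmp2 a matrix metalloproteinase. All 5 rose in model livers, with log2 fold changes from 0.90 to 2.28. Those most like Igha were Snhg20 (0.88), E2f5 (0.81), Rpl6 (0.79), Trmt112-ps2 (0.78) and Ighg2b (0.78), and no gene stood in both lists of 5. These are descriptions over 18 libraries that share tissue composition and scaling, picked as the highest of 14895 genes.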
